A study of Bos taurus with 32 samples.

Results

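SR proteins and their relatives the TRA2 proteins are RNA-binding splicing factors, and 10 of their genes were followed here through bovine preimplantation development: TRA2A, TRA2B, SRSF1, SRSF2, SRSF3, SRSF5, SRSF6, SRSF7, SRSF10 and SRSF11. The members were taken by gene name from the 4 stage tables. All 10 were present in each table, among 14225 genes listed in all 4 tables and 19834 listed in at least 1. They were chosen by their levels in these data, with earlier results known. The course of the control embryos over the stages is treated as the values they were selected on, and it is given as a description with no test.

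Embryos were produced in vitro and cultured with FGF2, LIF and IGF1 together (FLI) or without these cytokines (control). FLI and control embryos were collected with 4-6 cells, with 9-16 cells, as morulae and as blastocysts, with 4 libraries for each of the 8 groups and 15 embryos pooled in each library. The labels name neither breed, sire, embryo sex nor cytokine dose, and they do not say whether replicates came from separate cultures, so a p-value here speaks of pool-to-pool spread, which may be technical. The design text says that the study asked how the cytokines affect the embryos' development and transcriptome. In such pools fewer cells of a type and less RNA per cell cannot be told apart.

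SR proteins carry RNA recognition motifs and a domain rich in arginine and serine, and most of them bind exonic enhancers and help U1 and U2AF to recognise splice sites. Their activity depends on phosphorylation of that domain by SRPK and CLK kinases, and several also carry messenger RNA out of the nucleus. Many of these genes regulate themselves through alternative exons that send the transcript to nonsense-mediated decay, which gene-level counts do not separate. During early cleavage the mammalian embryo runs on transcripts stored in the oocyte until its own genome is activated, which in cattle happens over several cleavages before the morula forms. SRSF3 is needed for blastocyst formation in the mouse.

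Depth ranged over 12.4-89.2 M reads at the 4-6 cell stage, 7.01-50.6 M at the 9-16 cell stage, 11.6-114 M in morulae and 62.6-169 M in blastocysts. Control morula replicate 4, with 83409 reads, and control blastocyst replicate 6, with 2995 reads, were too shallow to read and were left out, which leaves 30 libraries. In the control blastocyst left out, 8 of the 10 genes had 0 reads. The summed signal of 10 maternal and oocyte markers was 8364-23377 at the 2 early stages and 29.6-149 in morulae and blastocysts, and that of 9 trophectoderm markers was 27909-54206 in blastocysts and at most 2321 before. Cumulus and granulosa markers summed to 220-434 at the early stages and 10.7-34.5 later, sperm markers to at most 110, and blood, immune and endothelial markers to 37.6-254. In 8 of the 30 libraries under 0.2% of reads fell in the rows named bta-mir-2887-2, while the other 22 had 0.232-7.17%. Those 8 were FLI and control replicate 6 at the 4-6 cell stage, control replicate 11 at the 9-16 cell stage, FLI replicate 7 and control replicate 1 of the morulae, and FLI replicates 5, 6 and 7 of the blastocysts. These 8 libraries stood apart for several of the genes, as described below. The part of this split in any result was not tested beyond leaving them out. They were also deep for their stage. At the 4-6 cell stage they had 89.2 and 82.9 M reads, against 12.4-22.6 M in the others. At the 9-16 cell stage it was 50.6 M against 7.01-41.7 M. In morulae it was 114 and 94.1 M against 11.6-95.6 M, and in blastocysts 156-169 M against 62.6-111 M. The part of depth was not tested.

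TRA2B, which binds purine-rich exonic enhancers, had the lowest mean of the 10 per length at the 4-6 cell stage, within the spread of SRSF6. It was among the most abundant at the 9-16 cell stage. It lies on chromosome 1 at 81287578-81307980 of ARS-UCD1.2, on the plus strand, with an exonic length of 2114 bases. In counts per M reads, scaled jointly over all stages (CPM), it had 6.48, 4.93, 4.01 and 4.37 in FLI 4-6 cell embryos (replicates 6, 7, 8 and 9), against 13.7, 3.05, 4.04 and 3.44 in the control embryos with the same numbers. These levels rest on 49-1041 reads per library. At the 9-16 cell stage it had 794, 718, 839 and 564 CPM in FLI embryos (replicates 10 to 13), against 851, 5252, 459 and 676 CPM in control embryos with the same numbers. Every 9-16 cell library thus lay above every 4-6 cell library, and 1 control library stood far above the rest. That library, control replicate 11, held 274896 TRA2B reads. Mitochondrial genes were 2.80% of its reads, against 0.871-1.64% in the other 9-16 cell libraries, and their part in its TRA2B level was not tested. Control embryos averaged 1810 ± 2300 CPM with it (SD, n = 4) and 662 ± 196 CPM without it (SD, n = 3).

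TRA2B was then lower in morulae, at 343, 270, 309 and 284 CPM in FLI embryos (replicates 6, 2, 7 and 4), against 293, 497 and 439 CPM in control embryos (replicates 7, 1 and 3). FLI blastocysts had 292, 486, 397 and 311 CPM (replicates 5 to 8), against 302, 299 and 218 CPM in control blastocysts (replicates 5, 7 and 8). No morula or blastocyst library came back near the 4-6 cell level. Its paralog TRA2A, on chromosome 4 at 32116515-32135318, minus strand, followed a flatter course. TRA2A averaged 34.3 ± 4.47, 92.6 ± 17.9, 98.6 ± 8.26 and 77.0 ± 13.7 CPM over the 4 stages in FLI embryos (SD, n = 4 each). Control embryos averaged 32.7 ± 1.55, 110 ± 53.0, 118 ± 7.0 and 88.8 ± 29.0 CPM (SD, n = 4, 4, 3 and 3).

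**Figure D1:**
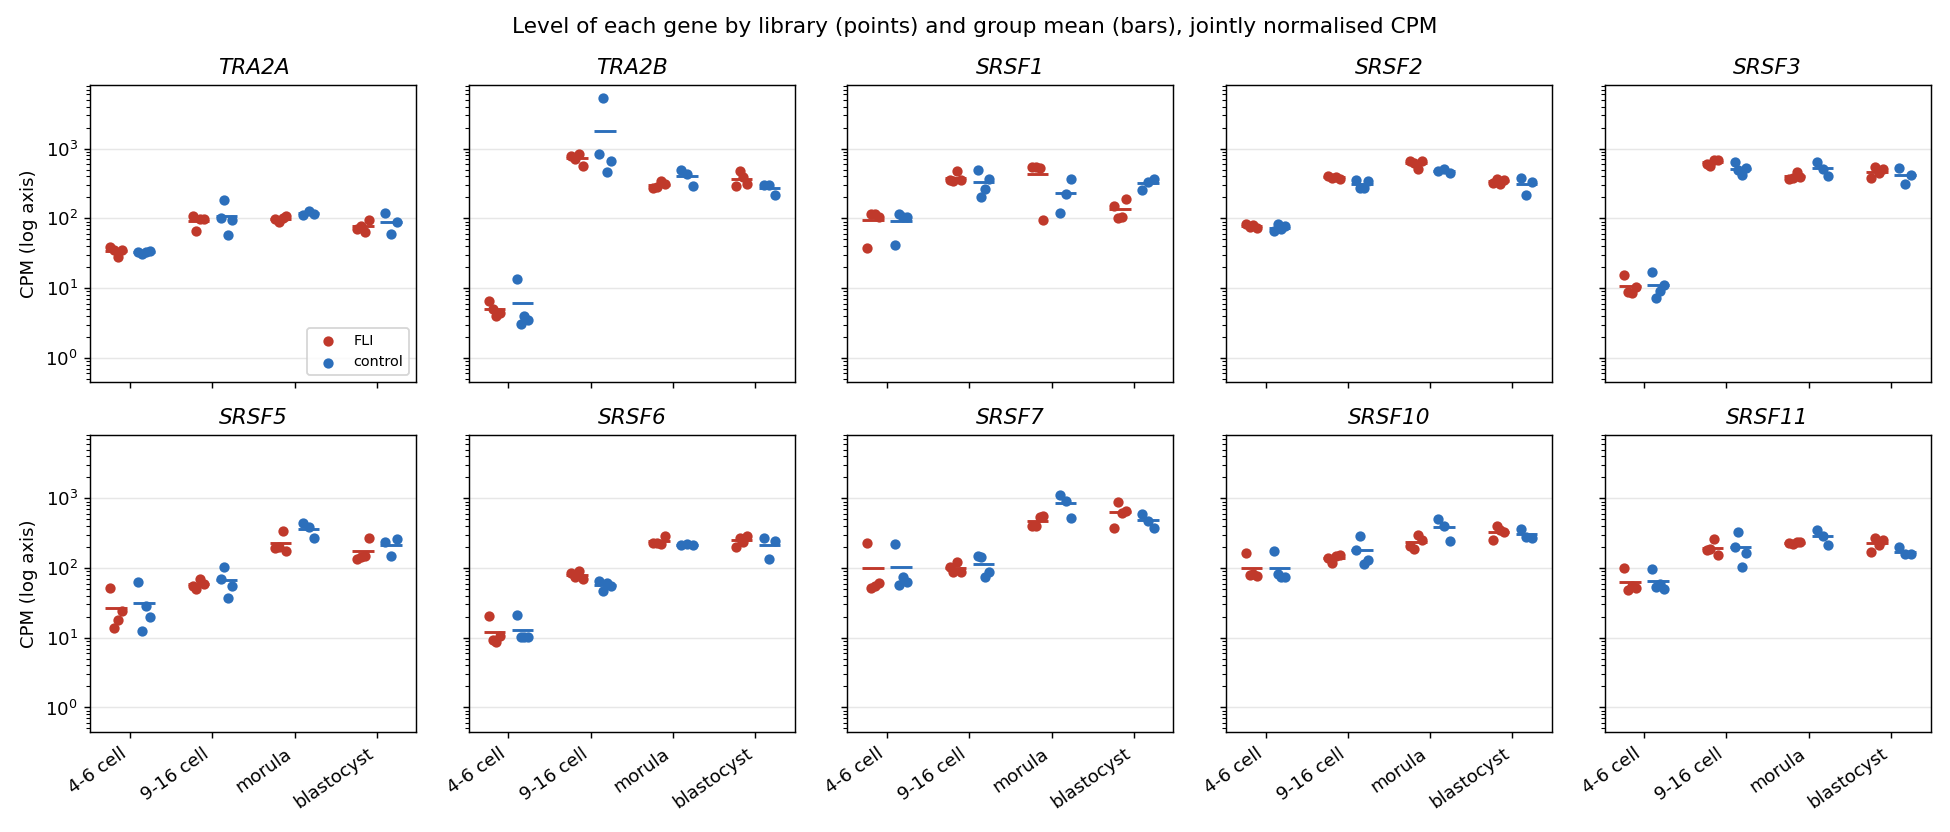
CPM (log axis) of the 10 genes in each of the 30 libraries by stage, FLI left of control. Each point is a library and each bar a group mean. TRA2B and SRSF3 each lie far lower at the 4-6 cell stage than at their later stages. The control library at 5252 CPM of TRA2B stands apart at the 9-16 cell stage.

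SRSF3, the smallest SR protein and an adaptor for export of messenger RNA, had the most similar course to TRA2B among the other 9. The gene lies on chromosome 23 at 10502815-10509269, plus strand. It had 15.2, 8.70, 8.45 and 10.4 CPM in FLI 4-6 cell embryos, against 17, 7.23, 8.98 and 11.1 CPM in control embryos (replicates 6 to 9 in both). FLI 9-16 cell embryos had 598, 570, 698 and 678 CPM, against 641, 488, 412 and 523 CPM in control embryos (replicates 10 to 13 in both). Again no 9-16 cell library overlapped the earlier stage, and here control replicate 11 lay among the others. Later levels remained far above the 4-6 cell stage, at 403 ± 44.6 CPM in FLI morulae and 469 ± 76.0 CPM in FLI blastocysts (SD, n = 4 each), against 520 ± 125 CPM in control morulae and 417 ± 109 CPM in control blastocysts (SD, n = 3 each).

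SRSF7, an SR protein with a zinc knuckle that also serves in export, had most of its gain later, between the 9-16 cell stage and the morula. Its gene lies on chromosome 11 at 21086083-21091537, minus strand. FLI 4-6 cell embryos had 229, 50.9, 56.0 and 60.4 CPM, against 220, 57.2, 73.4 and 62.6 CPM in control embryos (replicates 6 to 9 in both). Replicate 6 of both treatments stood well above the other 3 and carried low bta-mir-2887-2 shares of 0.011% in FLI and 0.029% in control. At the 9-16 cell stage SRSF7 averaged 100 ± 15.8 CPM in FLI embryos and 114 ± 38.3 CPM in control embryos (SD, n = 4 each). FLI morulae had 540, 403, 564 and 405 CPM (replicates 6, 2, 7 and 4), against 521, 1122 and 915 CPM in control morulae (replicates 7, 1 and 3). FLI blastocysts averaged 629 ± 204 CPM (SD, n = 4), against 484 ± 113 CPM in control blastocysts (SD, n = 3).

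SRSF1 and SRSF2, founding members of the family that bind exonic enhancers, were already present at the 4-6 cell stage. SRSF1 (chromosome 19 at 8806081-8809808, minus strand) averaged 93.2 ± 37.7, 383 ± 62.2, 426 ± 222 and 136 ± 41.5 CPM over the 4 stages in FLI embryos (SD, n = 4 each). In control embryos it averaged 91.1 ± 33.1, 330 ± 125, 235 ± 122 and 319 ± 58.1 CPM (SD, n = 4, 4, 3 and 3). At each of the 4 stages the libraries with under 0.2% of reads in bta-mir-2887-2 had less SRSF1 than every other library of that stage. They had 37.1 and 42.0 CPM against 103-117 CPM at the 4-6 cell stage, 205 CPM against 263-490 CPM at the 9-16 cell stage, 93.4 and 121 CPM against 221-551 CPM in morulae, and 102-149 CPM against 188-367 CPM in blastocysts. No other member was below the rest in all 4 stages. SRSF6 was in 1, while SRSF5, SRSF10, SRSF11 and TRA2B were above the rest in 2 stages each. SRSF2 overlapped at all 4 stages.

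SRSF2 (chromosome 19 at 55043351-55047192, plus strand) overlaps METTL23 on the other strand. Whether counting used strand is not given in the sources used here, so reads of the pair cannot be told apart. In FLI embryos the SRSF2 values were close among replicates, with 77.3 ± 4.47, 388 ± 12.9, 617 ± 75.9 and 340 ± 25.9 CPM over the stages (SD, n = 4 each). Control embryos had 73.7 ± 7.50, 311 ± 43.8, 479 ± 30.4 and 311 ± 86.4 CPM (SD, n = 4, 4, 3 and 3).

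**Figure D2:**
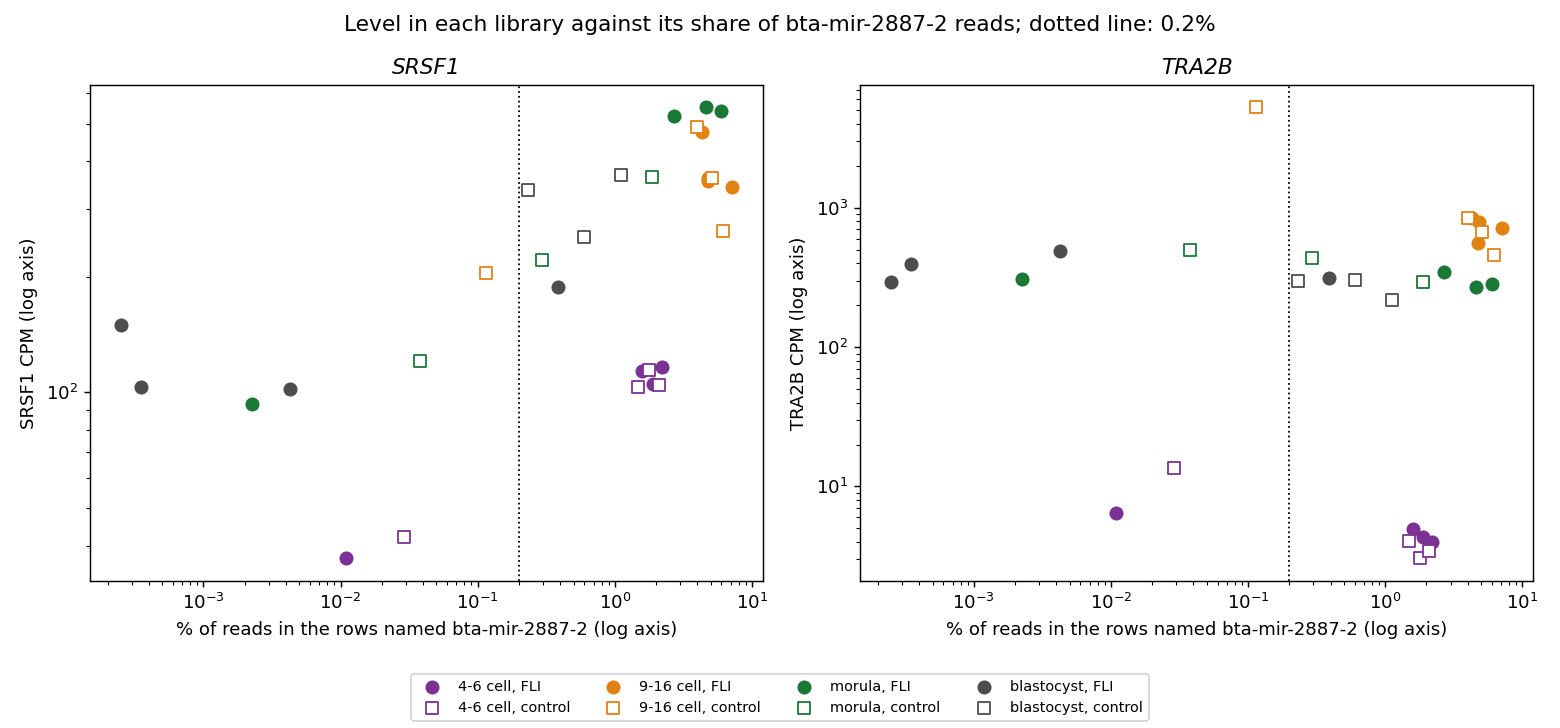
CPM of SRSF1 (left) and TRA2B (right) in each library against the percentage of its reads in the bta-mir-2887-2 rows, both on log axes. Filled circles are FLI and open squares control libraries; left of the dotted line at 0.2% the SRSF1 points are the lowest of their stage, and the TRA2B point at 5252 CPM is control replicate 11.

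SRSF5 and SRSF6, a pair of SR proteins known as enhancer-binding activators, reached their highest group means in morulae or blastocysts. SRSF5 (chromosome 10 at 81495740-81501121, plus strand) averaged 26.7 ± 16.7, 58.8 ± 8.44, 226 ± 76.8 and 175 ± 63.1 CPM over the stages in FLI embryos (SD, n = 4 each). Control embryos averaged 31.3 ± 22.8, 66.4 ± 28.2, 365 ± 83.2 and 214 ± 59.9 CPM (SD, n = 4, 4, 3 and 3). SRSF6 (chromosome 13 at 72096560-72102389, plus strand) averaged 12.2 ± 5.47, 80.0 ± 10.5, 242 ± 30.5 and 249 ± 41.2 CPM in FLI embryos (SD, n = 4 each), against 12.9 ± 5.36, 57.0 ± 7.70, 217 ± 3.34 and 216 ± 72.7 CPM in control embryos (SD, n = 4, 4, 3 and 3). In every morula library both genes were above every 9-16 cell library.

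The SR-like factors SRSF10, known in human and mouse cells to act as a repressor when dephosphorylated, and SRSF11, which binds U2AF, were present from the 4-6 cell stage on. SRSF10 (chromosome 2 at 128924106-128936367, plus strand) averaged 101 ± 42.7, 141 ± 15.4, 235 ± 51.1 and 330 ± 61.1 CPM over the stages in FLI embryos (SD, n = 4 each). Control embryos averaged 102 ± 50.0, 180 ± 79.8, 385 ± 134 and 305 ± 52.7 CPM (SD, n = 4, 4, 3 and 3). SRSF11 (chromosome 3 at 74928249-74964017, minus strand) averaged 63.7 ± 23.9, 197 ± 47.3, 230 ± 8.84 and 226 ± 43.3 CPM in FLI embryos (SD, n = 4 each), against 65.3 ± 22, 201 ± 94.3, 284 ± 64.3 and 173 ± 24.6 CPM in control embryos (SD, n = 4, 4, 3 and 3).

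Levels of different genes were compared per length, as CPM per kilobase of exon. At the 4-6 cell stage SRSF7 led with 76.7 ± 67.1 in FLI embryos, and TRA2B was last of the 10 with 2.34 ± 0.516, next to SRSF6 at 3.15 ± 1.41 (SD, n = 4 each). The gap between SRSF6 and TRA2B was smaller than the summed SDs, as it was in control embryos. Without FLI replicate 6 SRSF7 was at 43.2 ± 3.69, next to SRSF1 at 40.7 ± 2.13 (SD, n = 3 each), a gap smaller than the summed SDs. TRA2B was still last by mean at 2.10 ± 0.221, next to SRSF6 at 2.45 ± 0.239, again a gap smaller than the summed SDs. At the 9-16 cell stage SRSF3 led with 672 ± 65.3 and TRA2B was second with 345 ± 57.2, while SRSF6 was last with 20.7 ± 2.72 (SD, n = 4 each). SRSF3 and SRSF7 were the top pair in FLI morulae, with 425 ± 47.1 and 371 ± 66.4, and in FLI blastocysts, with 496 ± 80.3 and 488 ± 158 (SD, n = 4 each). Within each pair the gap was smaller than the summed SDs. Of the 9 gaps between neighbours in the order, 1, 6, 3 and 2 exceeded the summed SDs in FLI embryos at the 4 stages, and 2, 2, 3 and 1 did in control embryos. In control embryos TRA2B also went from last at the 4-6 cell stage to the top pair at the 9-16 cell stage.

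**Figure D3:**
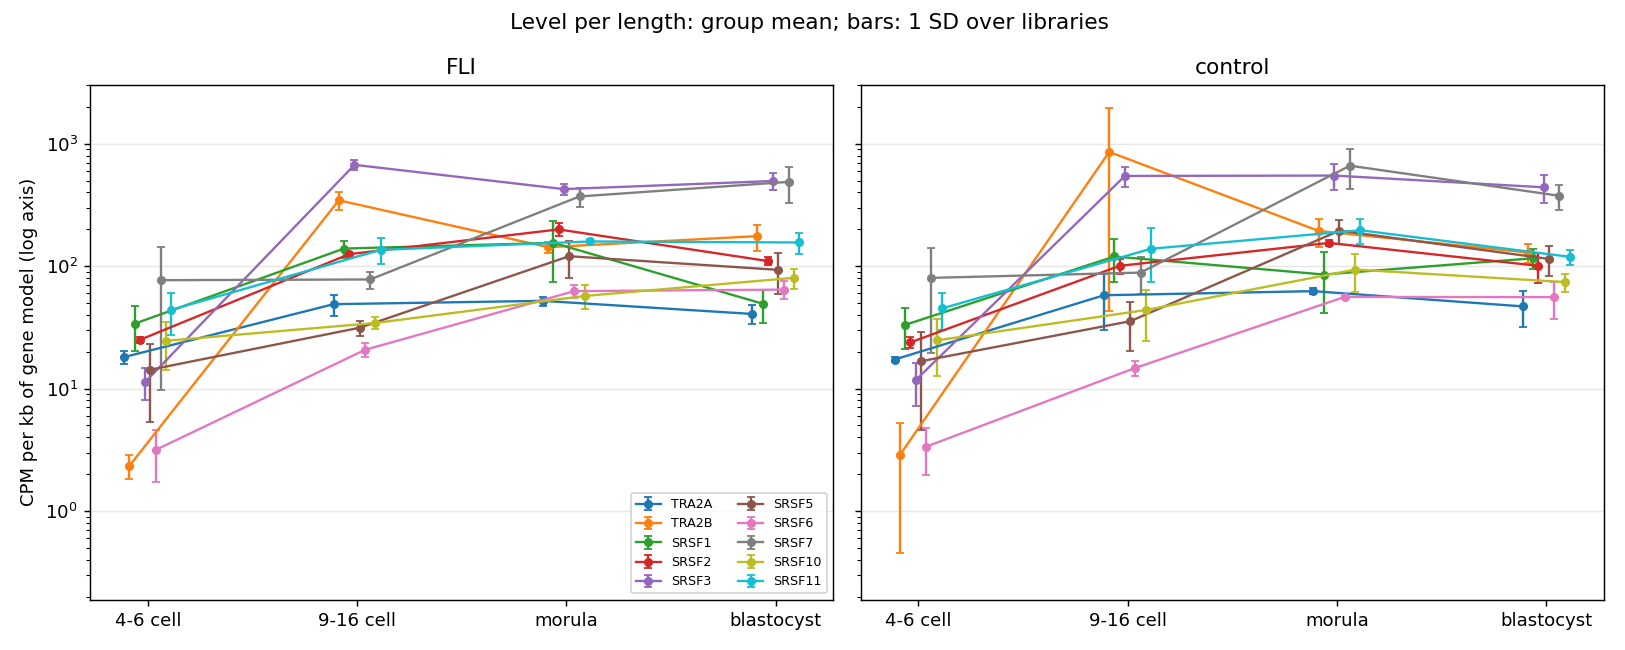
Mean CPM per kilobase of exon (log axis) of the 10 genes over the 4 stages, in FLI embryos (left) and control embryos (right). Error bars are SD over 4 libraries, or 3 in control morulae and blastocysts, and where the SD exceeds the mean (control TRA2B at the 9-16 cell stage) the lower arm is cut short on the log axis; TRA2B lies last at the 4-6 cell stage and second in FLI embryos at the 9-16 cell stage.

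Between the 4-6 and 9-16 cell stages in control embryos, the difference of mean log2(CPM + 1) was 7.49 for TRA2B, 5.47 for SRSF3 and 2.11 for SRSF6. It was lowest for SRSF10, at 0.83, and SRSF7, at 0.32. In all, 8 of the 10 genes were higher by at least 1 log2 unit and 0 lower by as much, where 12% of all 13388 genes were that much higher and 6.82% that much lower. Without control replicate 11 the TRA2B difference was 6.73. Between the 9-16 cell stage and the morula, SRSF7 at 2.88, SRSF5 at 2.51, SRSF6 at 1.92 and SRSF10 at 1.12 were past 1 log2 unit, where 34.1% of all genes were that much higher. TRA2B was the 1 gene lower by at least 1 log2 unit, at -1.44, where 30.2% of all genes were that much lower, and at -0.68 without control replicate 11 it was short of that mark. Between morula and blastocyst no member passed 1 log2 unit either way, the range running from -0.78 for SRSF5 to 0.56 for SRSF1, where 16.1% of all genes were that much higher and 15.9% that much lower.

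The same steps were tested in the 16 FLI libraries, which are other pools of the same study. Which values chose the members is not recorded, so FLI levels may have had a part in the choice. Same-numbered FLI and control libraries also deviated together at the 4-6 cell stage. These tests are therefore no independent check of the control course. Rises and falls are of CPM, a level relative to the other reads of a library, and not of RNA amount per embryo. Between the 4-6 and 9-16 cell stages, 8 of the 10 genes rose and 0 fell by limma at an adjusted p under 0.05, while 30.5% of all genes changed, 15.1% rising and 15.4% falling. TRA2B rose by 6.94 on the log2(CPM + 1) scale (SE 0.23, limma adjusted p = 2.04e-13) and SRSF3 by 5.80 (SE 0.22, limma adjusted p = 8.81e-13). SRSF6 rose by 2.69, SRSF2 by 2.31, SRSF1 by 2.14, SRSF11 by 1.65, TRA2A by 1.40 and SRSF5 by 1.27, with limma adjusted p-values between 1.57e-08 and 0.00867. SRSF10, at 0.55 (SE 0.26, limma adjusted p = 0.122), and SRSF7, at 0.32 (SE 0.38, limma adjusted p = 0.563), were not called. The SRSF5 value was 1.03 to 1.63 with each library left out in turn. Without FLI replicate 6 of the 4-6 cell stage both uncalled genes passed, SRSF7 at 0.83 and SRSF10 at 0.81. The median over the 10 genes was 1.89, beside -0.11 over all genes tested.

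Between the 9-16 cell stage and the morula 7 of the 10 genes changed, while 73.6% of all genes did: 5 rose, while 40.8% of all genes did, and 2 fell, while 32.9% of all genes did. The members' share called is near that of all genes. SRSF7 rose by 2.24 (SE 0.38, limma adjusted p = 3.9e-05), SRSF5 by 1.88 (SE 0.34, limma adjusted p = 8.26e-05) and SRSF6 by 1.58 (SE 0.25, limma adjusted p = 1.93e-05). SRSF10 rose by 0.71 (limma adjusted p = 0.0211) and SRSF2 by 0.66 (limma adjusted p = 0.00351). TRA2B changed by -1.26 (SE 0.23, limma adjusted p = 7.34e-05) and SRSF3 by -0.66 (SE 0.22, limma adjusted p = 0.012). SRSF11, TRA2A and SRSF1, at 0.25, 0.11 and -0.13, were not called. Without FLI morula replicate 7 the SRSF2 call was lost at 0.29 and that of SRSF10 at 0.34. SRSF10 also lost its call without 9-16 cell FLI replicate 11, at 0.64, and without FLI morula replicate 6, at 0.59.

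Between morula and blastocyst 2 of the 10 genes changed, while 40.7% of all genes did: 0 rose, while 18.6% of all genes did, and 2 fell, while 22.1% of all genes did. SRSF1 changed by -1.40 (SE 0.48, limma adjusted p = 0.0273) and SRSF2 by -0.85 (SE 0.18, limma adjusted p = 0.0014). The SRSF1 call was lost, with values of -1.28 to -1.16, when any of 5 of the 8 libraries was left out, namely FLI morula replicates 2, 4 and 6 and FLI blastocyst replicates 6 and 7. Of the 8 libraries in this step, 4 had low bta-mir-2887-2 shares, 3 of them blastocysts. The remaining 8 members ran from -0.37 for SRSF5 to 0.50 for SRSF10, with TRA2B at 0.28.

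**Figure D4:**
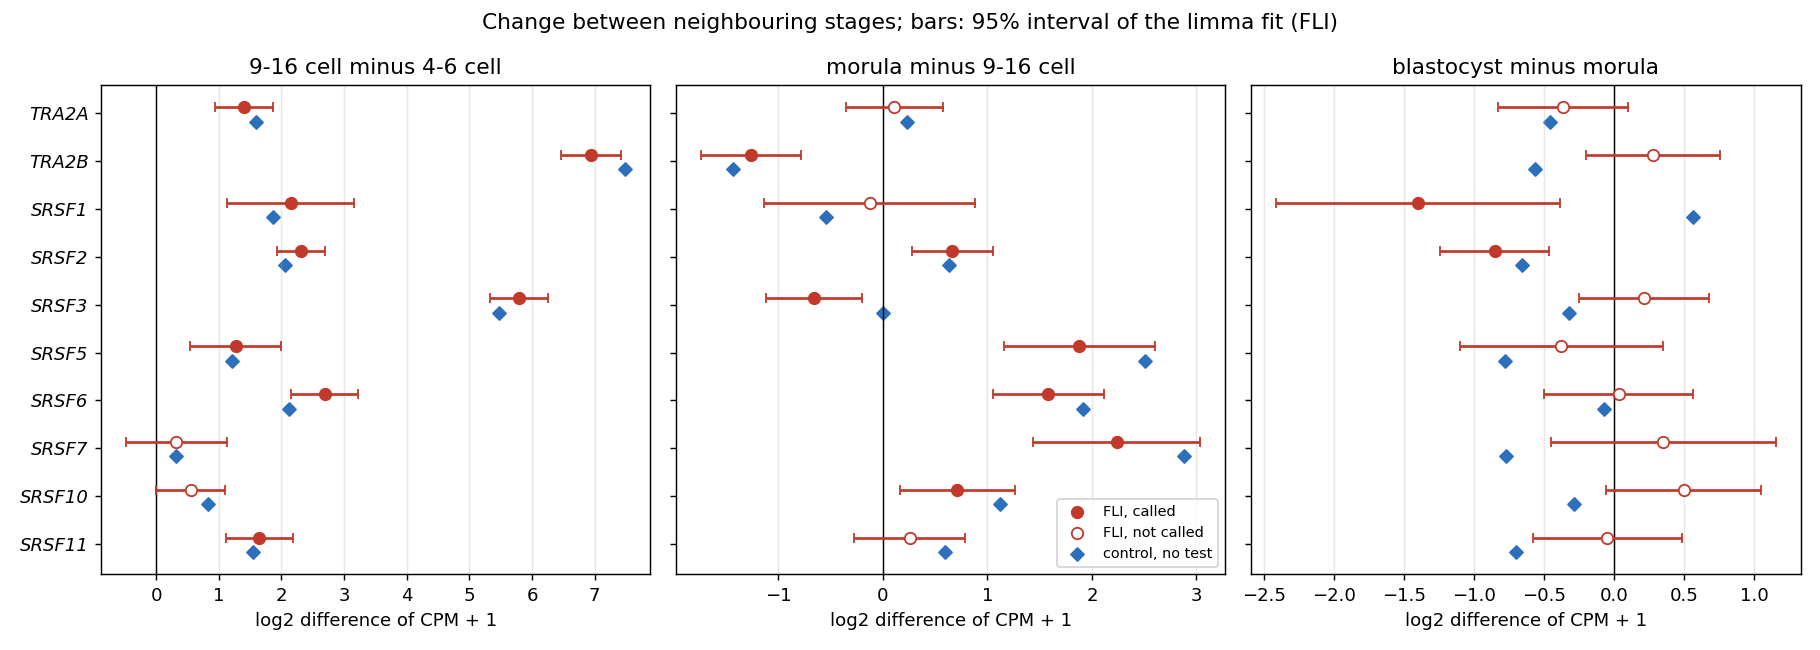
Differences of log2(CPM + 1) between neighbouring stages for each gene, with FLI estimates and their 95% limma intervals as circles, filled where called, and control differences as diamonds without a test. TRA2B and SRSF3 lie farthest to the right at the first step, and SRSF7, SRSF5 and SRSF6 at the second.

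By a fixed measure, the root mean square difference of centred mean log2(CPM + 1) over the 8 groups, 5 of 9184 candidate genes were most like TRA2B, other than members. They were PNRC1 at 0.58, AMIGO2 at 0.73, ZNF296 at 0.74, KLF10 at 0.79 and SGK1 at 0.82 log2 units. Among members SRSF3 was at 0.62 and SRSF6 next at 1.77. The measure is a description over 8 group means. In control replicate 11, where TRA2B stood apart, these 5 genes had 888, 177, 308, 92.3 and 80.4 CPM in the order given. PNRC1 lay within its range over the other 9-16 cell libraries, 637-1245 CPM, and the other four lay below theirs.

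Other genes of the splicing pathway were taken from 7 lists. Between the 4-6 and 9-16 cell stages in FLI embryos, 11 of 17 SR-related splicing proteins tested rose and 0 fell, with LUC7L at 2.39 and SAP18 at 2.30 on the log2 scale. Of 18 hnRNPs and other splicing repressors 8 rose and 0 fell, among them HNRNPA1 at 2.52 and HNRNPK at 2.41. Of 25 components of U1, U2 and U2AF 7 rose, with SNRPB at 3.09 and PHF5A at 2.37, and 1 fell. Of 14 factors of nonsense-mediated decay 0 rose and 2 fell, UPF3A at -1.56 and UPF1 at -1.29. These counts stand beside 15.1% of all genes rising and 15.4% falling.

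Of 11 SR kinases and phosphatase partners 4 rose and 1 fell at that step. CLK1, a nuclear kinase of SR proteins, was at 8.13 ± 2.68 CPM in FLI 4-6 cell embryos and 108 ± 21.6 CPM in FLI 9-16 cell embryos (SD, n = 4 each), a rise of 3.59 (SE 0.24, limma adjusted p = 1.27e-09). SRPK1, the cytoplasmic kinase, was not called at -0.48 (limma adjusted p = 0.18), and PPP1CC rose by 1.22. Between the 9-16 cell stage and the morula both kinases were lower, CLK1 at -1.25 (limma adjusted p = 0.000135) and SRPK1 at -1.26 (limma adjusted p = 0.000297). Of 9 genes of nuclear import and messenger RNA export 3 rose and 1 fell at the first step, with ALYREF at 2.01 and TNPO3, the importin of SR proteins, at 1.82. The other SR proteins measured did not share 1 course: SRSF4 rose by 1.23 (limma adjusted p = 0.000945) at the first step, SRSF9 by 2.10 (limma adjusted p = 5.65e-06) at the second, and SRSF12 was not called at the first at 0.06. SRSF8 and LUC7L2 were not analysed here.

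At the second step 13 of the 25 U1, U2 and U2AF components rose and 1 fell, and 11 of the 18 hnRNPs and repressors rose and 2 fell. Of the 17 SR-related proteins 3 rose and 4 fell, of the 11 kinases and phosphatase partners 2 rose and 4 fell, of the 14 decay factors 6 rose and 3 fell, of the 9 import and export genes 4 rose and 1 fell, and of the 3 other SR proteins 1 rose and 1 fell. All genes had 40.8% rising and 32.9% falling. Between morula and blastocyst 22.1% of all genes fell and 18.6% rose. Of the lists, 7 of the 14 decay factors, 5 of the 17 SR-related proteins, 4 of the 25 U1, U2 and U2AF components, 3 of the 18 hnRNPs and repressors and 2 of the 9 import and export genes fell, and 0 of any of these rose. Of the 11 kinases and phosphatase partners 1 rose and 3 fell, and of the 3 other SR proteins 1 rose and 1 fell.

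FLI against control was tested within each stage on the deposited signal, log2(value + 1). With limma 0 of the 10 genes were called at any of the 4 stages, and 0% of all genes were called at each stage. At an unadjusted limma p under 0.05 there were 12 of 13385 genes at the 4-6 cell stage and 293 of 14139 at the 9-16 cell stage. There were 4203 of 13254 in morulae and 2049 of 13029 in blastocysts. Of these genes 0, 0, 3 and 1 were members, and in morulae and blastocysts the members' share is near that of all genes. With edgeR on the recovered reads 0 members were called, and with DESeq2 1 was in morulae and 1 in blastocysts. At the morula stage edgeR called 891 genes and DESeq2 2547, and in blastocysts edgeR called 0 and DESeq2 474. The 7 pathway lists likewise had 0 members called by limma in either direction.

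TRA2B at the 4-6 cell stage had a signal of 6.93, 6.01, 4.93 and 5.19 in FLI embryos, against 15.2, 3.80, 4.91 and 4.19 in control embryos. The groups overlapped, and the log2 difference was -0.06 (SE 0.39, 95% interval -0.95 to 0.84). Without control replicate 6 it was 0.35, and without FLI replicate 8 it was 0.0034. At the 9-16 cell stage its signal was 859 ± 128 in FLI embryos and 2225 ± 2852 in control embryos (SD, n = 4 each), a log2 difference of -0.63 (SE 0.61, 95% interval -1.96 to 0.70). Without control replicate 11, whose signal was 6492, the difference was 0.14. At both early stages the sign of the difference thus changed when 1 control library was left out.

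SRSF2 and SRSF6 were the 2 of 10 members whose groups did not overlap at the 9-16 cell stage, where 1.8% of all genes did not. At the 4-6 cell stage 0 of 10 members and 0.344% of all genes did not overlap. SRSF6 had a signal of 103, 88.5, 104 and 82.6 in FLI embryos (replicates 10 to 13), against 78.3, 58.1, 70.3 and 69.3 in control embryos, and the log2 difference was 0.45 (SE 0.21, 95% interval -0.01 to 0.90, limma adjusted p = 0.91). SRSF2 had 477, 460, 448 and 447 in FLI embryos, against 434, 339, 314 and 425 in control embryos, with a log2 difference of 0.29 (SE 0.21, limma adjusted p = 0.91). All FLI values were above all control values for both genes, but neither passed the test over all genes. Summed trophectoderm markers, of which 7 were listed, also did not overlap at this stage, at 1089-1233 in FLI and 610-1082 in control embryos. The other marker sums overlapped. The part of these markers in the differences was not tested.

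In morulae the FLI mean log2 value was below that of control for 7 of the 10 genes, with a median of -0.41 beside 0.08 over all genes tested. SRSF7 had a signal of 481, 317, 518 and 327 in FLI morulae (replicates 6, 2, 7 and 4), against 471, 1014 and 836 in control morulae (replicates 7, 1 and 3), a log2 difference of -0.88 (SE 0.35, limma adjusted p = 0.13). SRSF5 had 303, 150, 159 and 160 in FLI morulae, against 248, 395 and 351 in control morulae, a difference of -0.81 (SE 0.33, limma adjusted p = 0.131). SRSF10 had 267, 160, 229 and 149 in FLI morulae, against 221, 463 and 365 in control morulae, a difference of -0.77 (SE 0.34, limma adjusted p = 0.156). In these 3 genes control replicate 7 lay among the FLI values and the other 2 control libraries lay above all FLI values. The bta-mir-2887-2 share was 1.87, 0.038 and 0.294% in control morulae (replicates 7, 1 and 3). It was 2.69, 4.64, 0.0022 and 5.98% in FLI morulae (replicates 6, 2, 7 and 4). Its part in these differences was not tested. Without control replicate 7, which leaves 2 control libraries, all 3 genes were called, together with 4620 genes in all. The differences were then -1.20 for SRSF7, -1.01 for SRSF5 and -1.07 for SRSF10. With that library kept 13254 genes were tested in morulae, so the share of the 10 members called is near that of all genes.

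TRA2A was the 1 of 10 members that did not overlap between groups in morulae, where 21.3% of all genes did not, with a signal of 90.8, 77.2, 98.2 and 70.4 in FLI embryos, against 105, 102 and 115 in control embryos. Its log2 difference was -0.36 (SE 0.24, limma adjusted p = 0.308). TRA2B had 306, 212, 284 and 229 in FLI morulae, against 265, 449 and 402 in control morulae, and a difference of -0.51 (SE 0.29, 95% interval -1.16 to 0.15, limma adjusted p = 0.249). Summed sperm and genome activation markers reached higher values in control morulae, but their ranges overlapped between groups. The 5 sperm markers, of which 3 were listed, had 6.01-27.8 in FLI morulae and 23.9-110 in control morulae. The 9 genome activation markers, of which 4 were listed, had 373-738 in FLI morulae and 714-2128 in control morulae. Genes of the mitochondrial genome made up 1.39-3.95% of reads in FLI and 4.30-6.11% in control libraries of this stage, without overlap. The part of these in the differences was not tested.

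In blastocysts SRSF1 was the 1 of 10 members whose groups did not overlap, a share near the 12.8% of all genes that did not. It had a signal of 148, 100, 97.5 and 188 in FLI blastocysts (replicates 5 to 8), against 252, 330 and 351 in control blastocysts (replicates 5, 7 and 8). The log2 difference was -1.25 (SE 0.32, 95% interval -1.95 to -0.56, limma adjusted p = 0.167). In the authors' deposited table, which includes the shallow control, the value is 1.10 as control minus FLI with a false discovery rate of 0.0443. No other member has a rate under 0.05 at any stage. The share of all genes under that rate was not counted here. With DESeq2 on the recovered reads the difference was -1.29 (DESeq2 adjusted p = 0.0163), and without FLI replicate 8 limma called it at -1.43. FLI replicates 5, 6 and 7 were the 3 blastocyst libraries with under 0.2% of reads in bta-mir-2887-2, the libraries in which SRSF1 was low at every stage. FLI replicate 8, with 0.387%, had the highest SRSF1 of the 4 FLI blastocyst libraries. Treatment and this share cannot be told apart in blastocysts except in that library. Depth was 111-169 M reads in FLI and 62.6-107 M in control blastocysts, without overlap, and its part was not tested.

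TRA2B in blastocysts had a signal of 291, 478, 376 and 311 in FLI embryos, against 299, 294 and 208 in control embryos. Its log2 difference was 0.44 (SE 0.30, 95% interval -0.22 to 1.09, limma adjusted p = 0.503). The remaining 8 members overlapped between groups and had log2 differences short of the threshold. Trophectoderm markers summed to 32685-54206 in FLI blastocysts and 27909-29843 in control blastocysts, which did not overlap, and their part in the SRSF1 difference was not tested.

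**Figure D5:**
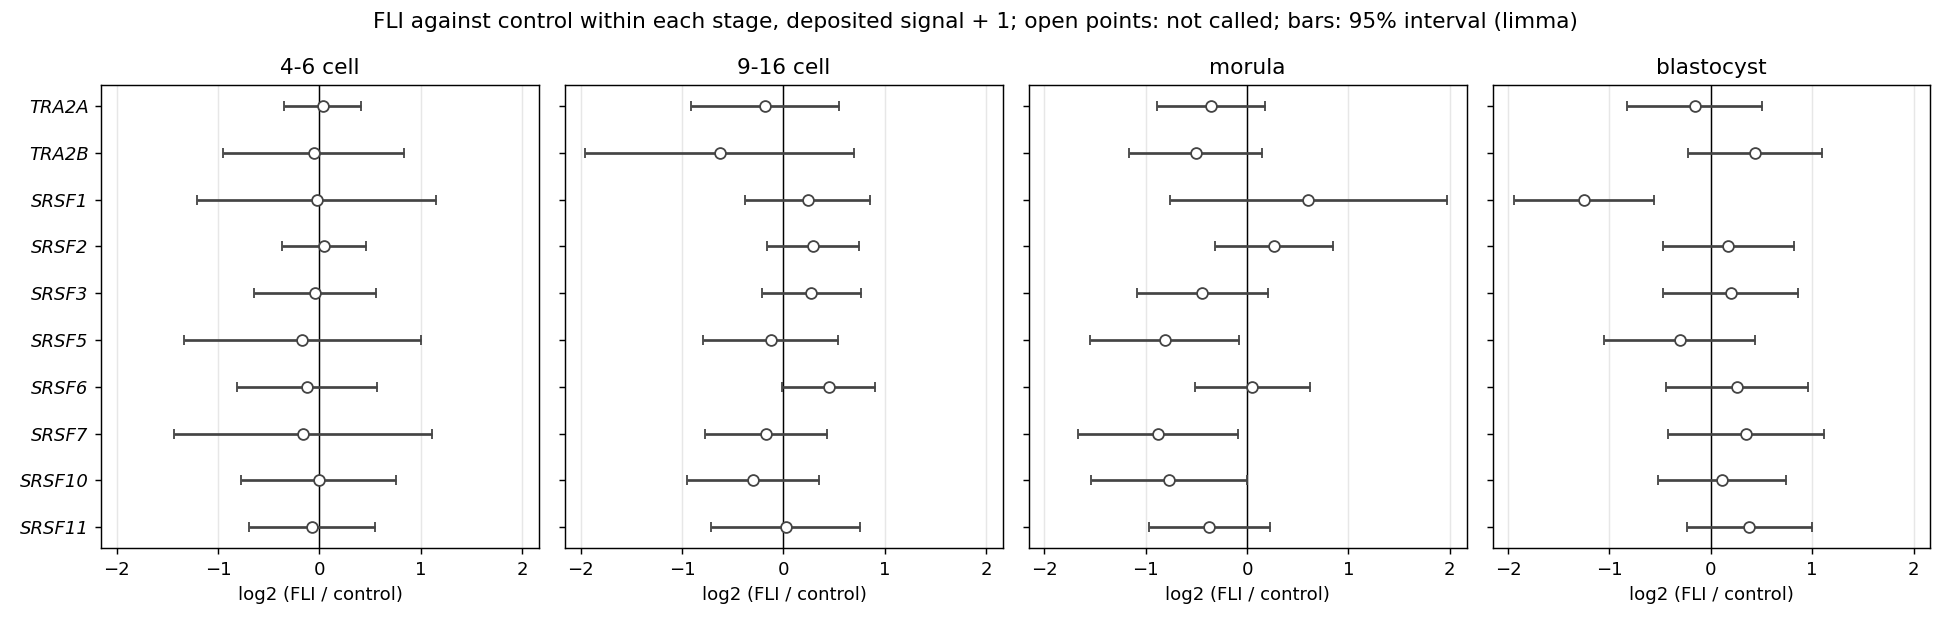
Log2 difference of signal, FLI minus control, for each gene at each stage, with 95% intervals from limma. Values left of 0 are lower in FLI embryos; the SRSF1 interval in blastocysts, -1.95 to -0.56, lies left of 0, as do those of SRSF5, SRSF7 and SRSF10 in morulae, and none of the 10 passed the adjusted threshold.

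Whether a stage step differed between FLI and control embryos was tested in 1 fit of the 30 libraries. With limma 0 of the 10 genes and 0% of all genes were called at any step, and 86, 881 and 2922 of 13388 genes, 0, 0 and 1 of them members, had an unadjusted p under 0.05. edgeR called 0 genes at each step. For TRA2B the step in FLI minus that in control embryos was -0.55 (SE 0.66), 0.18 (SE 0.69) and 0.84 (SE 0.71) over the 3 steps. For SRSF1 between morula and blastocyst it was -1.96 (SE 0.72, limma adjusted p = 0.175). Without FLI morula replicate 7 it was called at -2.44, together with 975 genes in all. That replicate is the only FLI morula library with under 0.2% of reads in bta-mir-2887-2. FLI blastocyst replicates 5, 6 and 7 are also under 0.2%, so without it this call goes along with the split. With only the libraries of at least 0.2% bta-mir-2887-2, a setting chosen after seeing the split in SRSF1, the SRSF1 value was -1.48. That setting leaves 1 FLI blastocyst library, which is assumed to vary like the other groups, so the value rests on that library.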

How the data were processed

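Pools of 15 embryos were profiled. Per the labels, RNA was isolated with the PicoPure kit and amplified with SMART-Seq v4, which primes on poly(A) tails. Per the submitters' processing notes, FastQC, HISAT2 with the build ARS-UCD1.2, featureCounts and edgeR were used. The sources used here give no versions, no strand setting and no handling of reads that map to several places. The authors deposited 1 table per stage with signal values (reads divided by a scaled library size), and with their log2 fold changes, a likelihood-ratio score and p-values, per the file headers.

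Dividing each column by its lowest value above 0 gave whole reads for 100% of values (tolerance 0.001). Stages were joined over these reads with TMM factors as CPM. limma 3.58.1 (trend and robust, R 4.3.3) was run on log2(value + 1), two-sided, for genes with a mean of at least 1, with Benjamini-Hochberg adjustment over all genes tested. Fold changes of genes near 1 are understated on this scale. Alternatives were edgeR 4.0.16 and DESeq2 1.42.0 on the recovered reads, a pseudocount of 0.5, no filter, other size factors, the replicate block, the shallow controls kept and each library left out. The scripts were checked on simulated data. Stages were collected separately, and the 2 cannot be told apart. Same-numbered libraries deviated together at the 4-6 cell stage (r of 0.47 to 0.92 over 4 pairs) so the numbers pair them there; the tests reported are without the replicate block, which was an alternative.

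The members and lists were chosen with earlier results of these data known. All 10 members were named. Of the other splicing lists, the other SR proteins, CLK1, SRPK1 and TNPO3 were named, with up to 2 more per list by size of called change. Counting intervals were not used, since replicate spread is given. Symbols of all 10 members matched the RefSeq table.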

Additional observations from a re-analysis of the deposited data

Results flagged for a closer look

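Of 60 groups of 4 libraries examined (10 genes in 6 groups), 16 had 1 library set apart from the other 3. The gap, as a share of the group's range, was beyond Dixon's critical value. For independent groups of normally distributed values about 1 in 20 would pass it. The 10 genes share the same libraries, so the count of 16 cannot be set against that rate. FLI 4-6 cell replicate 6 was set apart for 5 genes, at 37.1 CPM of SRSF1, 20.3 of SRSF6, 229 of SRSF7, 165 of SRSF10 and 99.4 of SRSF11. Control 4-6 cell replicate 6 was set apart for 5, at 13.7 CPM of TRA2B, 42.0 of SRSF1, 21.0 of SRSF6, 220 of SRSF7 and 176 of SRSF10. SRSF1 was low in both and the other genes high. Control 9-16 cell replicate 11 was set apart at 5252 CPM of TRA2B, and FLI 9-16 cell replicate 12 at 475 CPM of SRSF1. FLI morula replicate 7 was set apart at 93.4 CPM of SRSF1 and 287 of SRSF6, and FLI morula replicate 6 at 340 CPM of SRSF5. FLI blastocyst replicate 8 was set apart at 269 CPM of SRSF5. Both 4-6 cell libraries of replicate 6, control replicate 11 and FLI morula replicate 7 had under 0.2% of their reads in bta-mir-2887-2.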

How the results depend on the processing

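Calls of FLI against control depended on the test and on single libraries; the causes were not tested. In morulae edgeR called 891 genes and DESeq2 2547, with 1 member by DESeq2, SRSF7 at -0.97 (DESeq2 adjusted p = 0.0445). In blastocysts DESeq2 called 474 genes and 1 member, and limma called 3 with the shallow control kept. That setting moved the median of all genes to 0.98, and SRSF1 turned to 0.82, which is below that median. For the step differences, the middle one had 1 gene with no filter and 4 in libraries with at least 0.2% of reads in bta-mir-2887-2, and the last had 1540 genes and 1 member in those libraries, a setting added after seeing the data. It leaves 1 FLI blastocyst library, whose spread is assumed to be that of the other groups, so these calls test no spread within that group. In that setting TRA2B turned to 0.27 and 0.14 at the 4-6 and 9-16 cell stages and to -0.63 in the middle step difference. In the FLI steps there, TRA2A turned to -0.20 and SRSF11 to -0.026 at the second step, and SRSF1 to 0.23. At the last step TRA2A turned to 0.16, SRSF5 to 0.36 and SRSF11 to 0.31. With size factors by relative log expression, which moved the median of all genes from 0.23 to 0.05 at the second FLI step and from -0.08 to 0.05 at the last, TRA2A turned to -0.10 and SRSF11 to 0.12, and SRSF10 lost its second-step call at 0.50 (limma adjusted p = 0.105). With edgeR SRSF1 turned to 0.16 at the second step. The values that turned were not called by limma as reported.

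With each library left out in turn, 0 to 4620 genes and 0 to 3 members were called in morulae, 0 to 386 genes and 0 to 1 member in blastocysts, 0 to 16 genes in the middle step difference, and 0 to 975 genes and 0 to 1 member in the last. The last FLI step had 1 to 2 members called, and the control embryos had 0 to 1 member lower by 1 log2 unit at the second and at the last step. TRA2B ran from -0.24 to 0.35 and from -1.07 to 0.14 at the 4-6 and 9-16 cell stages, and from -0.98 to 0.21 and -0.58 to 0.59 in the first and middle step differences. In the second FLI step TRA2A ran from -0.26 to 0.19, SRSF1 from -0.35 to 0.17 and SRSF11 from -0.090 to 0.40. In the last step SRSF11 ran from -0.072 to 0.076 and SRSF6 was -0.0050 to 0.22. Other settings left 110 counts on the same side and 253 values of single genes in the same direction and on the same side. With the replicate block, the 4-6 cell stage still had 0 genes called (549 at an unadjusted p under 0.05), and no call changed there, at the 9-16 cell stage or in blastocysts. At those last 2 stages same-numbered libraries had r of 0.06 to 0.29 and -0.74 to 0.35. The labels do not say what a shared number marks. No paired analysis was possible for morulae because the groups share fewer than 2 numbers once the shallow control is left out. TRA2B at the 4-6 cell stage rests on as few as 49 reads.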
